A study of Chlorocebus sabaeus with 3 samples.

Results

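The 7 genes of the insulin-like growth factor binding proteins (IGFBP1 to IGFBP7) and FOXO1 were followed through cell-free RNA of vervet monkey (Chlorocebus sabaeus) amniotic fluid. They were chosen by gene name, as 8 of the 33994 gene names in the deposited tables, and all 8 were measured. The fluid had been cleared of cells, and its RNA was amplified with the Ovation SPIA chemistry before sequencing. Each status had 1 library. The stillborn animal is labelled M for sex and the alive one F, while the spontaneous abortion carries NA. No treatment is labelled in any group, and gestational age was not used here. Where 3 values stand together without labels, their order is stillborn, spontaneous abortion, alive. With 1 library a status there is no replicate check, so the comparisons set library against library, carry no p-value, and have intervals for counting error only. Cell-free RNA is a bulk sample of RNA outside cells. The number of cells that gave it, their RNA per cell, and its release and survival in the fluid cannot be told apart.

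IGFBPs are secreted proteins that bind the growth factors IGF1 and IGF2, carry them, and limit or prolong their access to the IGF1 receptor. Proteases cut the binding proteins and free the growth factors. IGFBP1 is a product of decidual stroma and fetal liver and is a major binding protein of amniotic fluid. FOXO1 is a forkhead transcription factor that insulin and IGF signalling keep out of the nucleus through AKT, and IGFBP1 is among its classical target genes in liver and decidua.

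The libraries held 17749954 (stillborn), 29926352 (spontaneous abortion) and 20220899 (alive) assigned reads. These totals were solved for from the deposited RPKM (reads scaled by gene length and by the library's assigned reads), together with the number of reads behind each value. The lengths implied by the same solution exceeded the whole span of the gene in the RefSeq table (assembly mChlSab1.0.hap1) for 2751 of 17586 genes, and for those genes the RPKM is lower than it would be per length of 1 transcript. For the 8 genes described here the implied lengths were below the gene's span, at 2679 bases for IGFBP1, 1408 for IGFBP2, 3848 for IGFBP3, 2226 for IGFBP4, 6266 for IGFBP5, 2121 for IGFBP6, 1305 for IGFBP7 and 5755 for FOXO1. RefSeq lists 1 transcript for 7 of the 8 and 2 for IGFBP3. IGFBP3 and IGFBP1 are neighbours on the chromosome there, as are IGFBP2 and IGFBP5.

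IGFBP1 differed most between the libraries. It stood at RPKM 11.0 in the stillborn library (524 reads), at 1.01 in the spontaneous abortion library (81 reads) and at 30.7 in the alive library (1664 reads). The counting intervals were 10.1 to 12.0, 0.802 to 1.26 and 29.3 to 32.2, so none of the 3 libraries overlapped another. In rank of RPKM among all gene names it was 1430th in the alive, 3030th in the stillborn and 10124th in the spontaneous abortion library.

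IGFBP5, a matrix-binding member made by mesenchymal cells, was high in 1 library. Its RPKM was 1.43 in the stillborn (159 reads), 1.69 in the spontaneous abortion (316 reads) and 6.68 in the alive library (847 reads). The intervals of the losses, 1.22 to 1.67 and 1.50 to 1.88, overlapped each other and lay below that of the alive library, 6.24 to 7.15. IGFBP7, a low-affinity member found in vessel walls and epithelia, had the same order of alive above the losses but few reads, with RPKM 0.302 (7 reads), 0.256 (10 reads) and 1.55 (41 reads). Its intervals were 0.121 to 0.623 and 0.123 to 0.471 in the losses and 1.11 to 2.11 in the alive library.

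The other 4 binding proteins differed less between the libraries. IGFBP2, the main binding protein of fetal serum besides IGFBP1, was at RPKM 7.40 (185 reads), 5.93 (250 reads) and 6.04 (172 reads). IGFBP3, the main carrier of IGFs in adult serum, was at 4.61 (315 reads), 5.02 (578 reads) and 5.99 (466 reads). IGFBP4, an inhibitory member that is cut by the protease PAPPA, was at 4.13 (163 reads), 4.04 (269 reads) and 4.49 (202 reads). Intervals of all 3 libraries overlapped for IGFBP4 and IGFBP2, while for IGFBP3 both losses (4.12 to 5.15 and 4.62 to 5.45) lay just below the alive library (5.46 to 6.56). IGFBP6, which prefers IGF2 over IGF1, was at 3.27 (123 reads), 2.63 (167 reads) and 2.168 (93 reads), with intervals of 2.72 to 3.90 in the stillborn and 1.75 to 2.66 in the alive library that did not overlap. Across the 3 libraries the highest RPKM was 1.25 times the lowest for IGFBP2, 1.30 times for IGFBP3, 1.11 times for IGFBP4 and 1.51 times for IGFBP6. The same quotient was 30.4 for IGFBP1, 4.68 for IGFBP5 and 6.07 for IGFBP7.

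FOXO1 was lowest in the alive library, where IGFBP1 was highest. It was at RPKM 2.43 in the stillborn (248 reads), 2.20 in the spontaneous abortion (379 reads) and 1.09 in the alive library (127 reads). Both losses, with intervals of 2.13 to 2.75 and 1.98 to 2.43, lay above the alive library, at 0.910 to 1.30, and overlapped each other. The order of FOXO1 over the 3 libraries was not that of IGFBP1 reversed. The spontaneous abortion library had the lowest IGFBP1 but not the highest FOXO1.

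**Figure D1:**
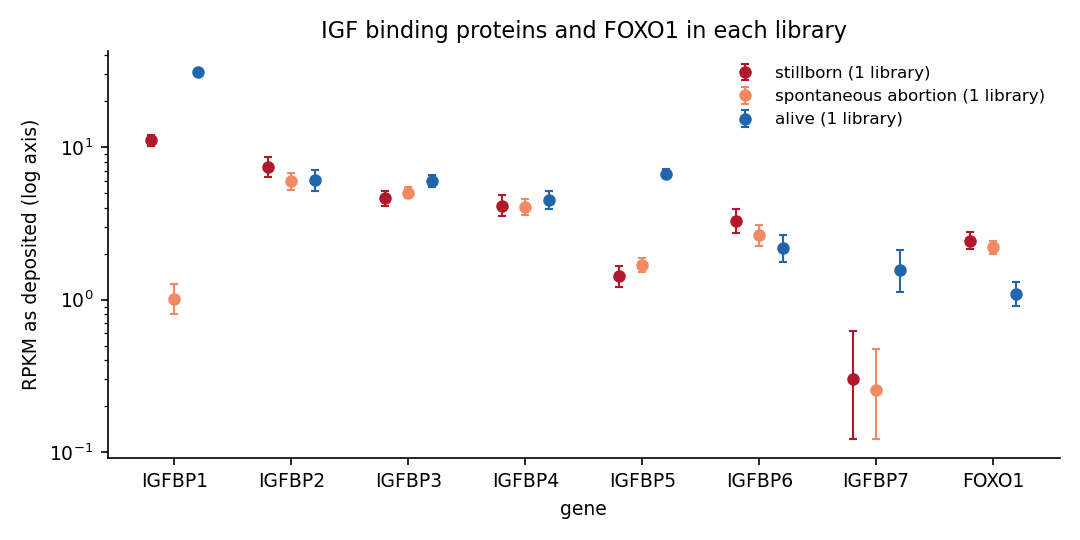
RPKM as deposited (log axis) of the 8 genes in the 3 libraries, 1 a status (stillborn, spontaneous abortion, alive), with bars for the exact 95% counting interval. IGFBP1 runs from 1.01 to 30.7, IGFBP5 and IGFBP7 are highest in the alive library, FOXO1 is lowest there, and IGFBP2, IGFBP3 and IGFBP4 lie close together.

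Within the family, the alive library was led by IGFBP1 with 53.3% of the summed RPKM of the 7 genes. IGFBP5 (11.6%), IGFBP2 (10.5%) and IGFBP3 (10.4%) followed, and these 3 neighbours in the order did not differ beyond their counting intervals. IGFBP4 came next, and IGFBP6 and IGFBP7 were last with overlapping intervals. The stillborn library was led by IGFBP1 as well, at 34.3%, then by IGFBP2 at 23.0%. IGFBP3 and IGFBP4 overlapped there, as did IGFBP4 and IGFBP6, and IGFBP5 was 6th. In the spontaneous abortion library IGFBP1 was 6th of the 7, at 4.91%, behind IGFBP5 at 8.19%. IGFBP2 (28.8%) and IGFBP3 (24.4%) led it with overlapping intervals. These orders rest on the implied lengths, and a length below the gene's span may still add up more than 1 transcript. By reads, IGFBP3 led the spontaneous abortion library with 34.6%, IGFBP5 came next with 18.9%, IGFBP2 was 4th with 15.0% and IGFBP1 stayed 6th. In shares of reads, IGFBP1 held 35.5% (exact Clopper-Pearson 95% interval 33.1 to 38.0), 4.85% (3.87 to 5.99) and 47.7% (46.1 to 49.4). Shares of reads are not divided by gene length, but the reads were solved for together with the implied lengths.

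The summed RPKM of the 7 genes was 32.2 (stillborn), 20.6 (spontaneous abortion) and 57.6 (alive). Without IGFBP1 it was 21.1, 19.6 and 26.9. The 4 genes that differed least, IGFBP2, IGFBP3, IGFBP4 and IGFBP6, a set chosen after their values were seen, summed to 19.4, 17.6 and 18.7. IGF2, the fetal growth factor that these proteins bind, had 1085, 1267 and 317 times the summed RPKM of the 7 genes.

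**Figure D2:**
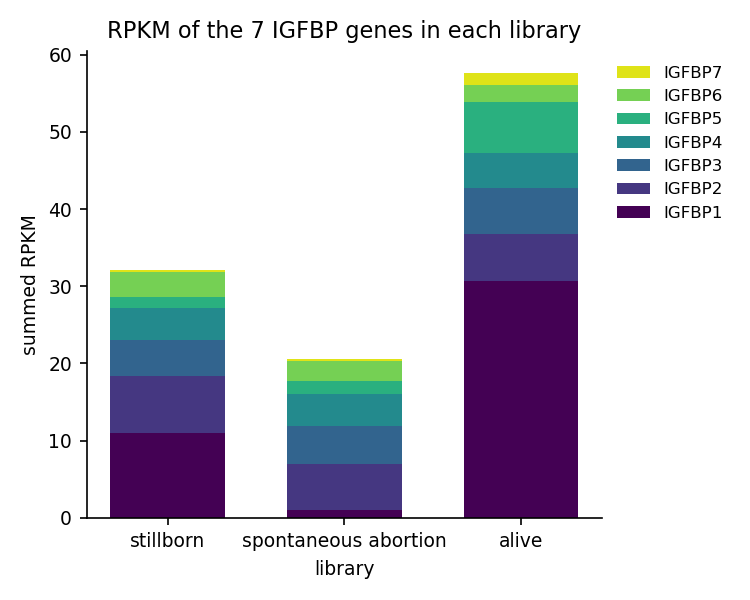
Summed RPKM (vertical axis) of the 7 IGFBP genes in each library, stacked by gene. The bars reach 32.2, 20.6 and 57.6, and the IGFBP1 segment makes up 34.3%, 4.91% and 53.3% of them.

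Ratios between genes within 1 library need no scaling between libraries. IGFBP1 had 2.39 times the RPKM of its neighbour IGFBP3 (95% interval 2.07 to 2.76), 0.201 times (0.158 to 0.254) and 5.13 times (4.63 to 5.70). The neighbours IGFBP5 and IGFBP2 stood at a quotient of 0.193 (0.155 to 0.240), 0.284 (0.240 to 0.337) and 1.11 (0.938 to 1.31). IGFBP1 over FOXO1, which are not neighbours, was at 4.54 (3.90 to 5.30), 0.459 (0.357 to 0.585) and 28.1 (23.5 to 34.0). In each of these 3 quotients the alive library was the highest, and its interval did not overlap that of another library. That follows from the levels of the single genes given above and is no separate result.

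Pairs of libraries were then compared on a common scale, with RPKM divided by TMM factors (trimmed mean of M-values), which were 0.936, 1.02 and 1.05. A gene is called apart here where its ratio was at least 4-fold, or at least 2-fold by a second rule, with an exact 95% interval that excluded 1 and at least 30 reads in the higher library. Both comparisons with the alive library share that library, so their values are given side by side and do not support each other. All 8 genes had the 30 reads needed in both of them.

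In the stillborn against the alive library, IGFBP1 was 2.49-fold lower (95% interval 2.26 to 2.75), IGFBP5 4.18-fold lower (3.52 to 4.98) and IGFBP7 4.60-fold lower (2.04 to 12.1). FOXO1 was 2.49-fold higher (2.00 to 3.11). By the 4-fold rule 2 of the 8 genes were apart, both lower, where 3.23% of the 13500 genes tested were apart as lower and 4.71% as higher, or 7.94% in all. On log2(RPKM + 0.1) these 2 genes, IGFBP5 and IGFBP7, had log2 ratios of -1.99 and -1.90 and neither reached 4-fold. IGFBP7 reached 30 reads in the alive library only, with 41 reads against 7 in the stillborn one. By the 2-fold rule 4 of the 8 were apart, 3 lower and 1 higher, beside 12.5% of all genes as lower and 13.1% as higher, or 25.6% in all. IGFBP6 was 1.69-fold higher (1.28 to 2.23) and IGFBP2 1.37-fold higher (1.11 to 1.70), the ratio of IGFBP3 was 0.862 (0.744 to 0.996), and that of IGFBP4 was 1.03 (0.832 to 1.27), an interval that holds 1. Scaled by total assigned reads alone, IGFBP4 lay on the other side of 1, at a log2 ratio of -0.12.

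In the spontaneous abortion against the alive library, IGFBP1 was 29.6-fold lower (23.7 to 37.4). It had the 17th lowest ratio of the 13857 genes tested. That rank takes 0 reads as 3, which raises the ratio of genes without reads in the spontaneous abortion library. IGFBP7 was 5.90-fold lower (2.91 to 13.2), IGFBP5 3.86-fold lower (3.39 to 4.41), and FOXO1 2.07-fold higher (1.69 to 2.55). By the 4-fold rule 2 of the 8 genes were apart, both lower, where 1.51% of all genes were apart as lower and 2.31% as higher, or 3.82% in all. By the 2-fold rule 4 of the 8 were apart, 3 lower and 1 higher, beside 5.72% and 7.69% of all genes, or 13.4% in all. With the libraries thinned down to the smallest of them, and likewise on log2(RPKM + 0.1), the log2 ratio of FOXO1 was 0.98 and it no longer reached 2-fold. The ratios of IGFBP2, at 1.01 (0.828 to 1.23), IGFBP4, at 0.925 (0.768 to 1.12), and IGFBP6, at 1.25 (0.962 to 1.62), had intervals that hold 1, and IGFBP3 was 1.16-fold lower (1.03 to 1.31). The sign of the IGFBP2 ratio flipped with the scaling, to a log2 ratio of -0.03 on total reads and -0.01 with median-of-ratios factors or thinned.

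Between the losses, IGFBP1 was 11.9-fold higher (9.38 to 15.2) in the stillborn one. It was the only one of the 8 genes apart by either rule, beside 2.81% higher and 1.64% lower of the 13861 genes tested at 4-fold (4.46% in all), and 7.55% higher and 7.49% lower at 2-fold (15.0% in all). IGFBP7 did not reach 30 reads in either loss, so 7 of the 8 were tested. IGFBP5 had a ratio of 0.923 (0.758 to 1.12), IGFBP3 one of 1.0003 (0.869 to 1.15) and IGFBP4 one of 1.11 (0.910 to 1.36). FOXO1, at 1.20 (1.02 to 1.41), IGFBP2, at 1.36 (1.12 to 1.65), and IGFBP6, at 1.35 (1.06 to 1.72), had intervals just above 1. On total reads without TMM factors, IGFBP3 turned to a log2 ratio of -0.12, so that 6 of the 8 genes were above 1 in place of 7.

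**Figure D3:**
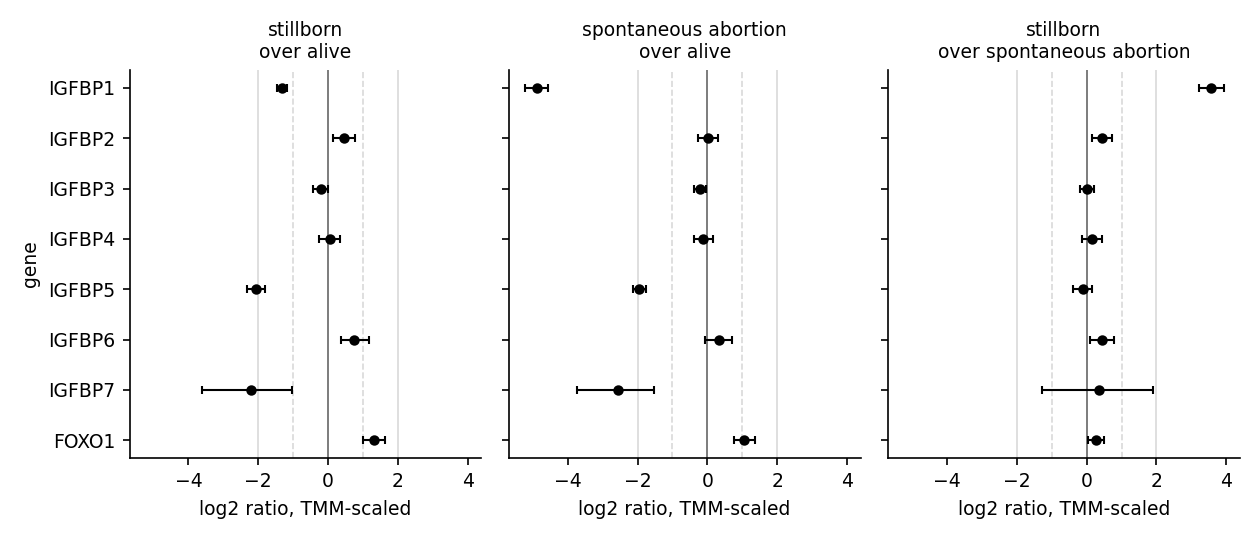
Log2 ratio of TMM-scaled reads (horizontal axis) of the 8 genes for the 3 pairs of libraries, with exact 95% intervals for counting error; dashed and solid grey lines mark 2-fold and 4-fold. IGFBP1 is left of 0 in both comparisons with the alive library and right of it between the losses, IGFBP5 and IGFBP7 are low against the alive library, and FOXO1 is high against it.

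The genes whose pattern over the 3 libraries was most like that of IGFBP1 were sought among 9750 named genes with at least 100 reads in a library. Likeness was the distance between the log2 ratios to the alive library, on the scale log2(RPKM + 0.1), and the points share that library. The nearest was GZMB, a granzyme of cytotoxic lymphocytes, at a distance of 0.70, with RPKM 1.81, 0.2205 and 8.44. GNLY, the granulysin of the same cells, followed at 1.02, with RPKM 1.51, 0.256 and 8.84. FLT3, a receptor of haematopoietic progenitors, was at 1.31, LYVE1, a hyaluronan receptor of lymphatic vessels and macrophages, at 1.63, and the chemokine CCL23 at 1.81. All 5 shared the order of alive above stillborn above spontaneous abortion. They were chosen for likeness to IGFBP1 in the same ratios, so that order is no separate result. Each reached 100 reads in the alive library only. In the spontaneous abortion library they had 7 (GZMB), 6 (GNLY), 5 (FLT3), 6 (LYVE1) and 11 (CCL23) reads.

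IGFBP5 and IGFBP7 were near each other, with IGFBP5 the 3rd nearest gene to IGFBP7 at 0.30. FREM1, a basement membrane protein, was nearest to IGFBP5 at 0.08, then SHPK, a sedoheptulose kinase, at 0.15. ODF3L1 was the 3rd for IGFBP5 at 0.23, and the nearest for IGFBP7 at 0.11. NAP1L5 (0.27) and LRP5, a WNT co-receptor (0.33), completed the 5 for IGFBP5, and KIAA1024L (0.30), BASP1 (0.30) and FREM1 (0.38) those for IGFBP7. FOXO1 lay where genes were dense, and its 5 nearest, C12H9orf85, ZNF879, SAMD12, FAM185A and the keratin KRT78, were all within 0.04.

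**Figure D4:**
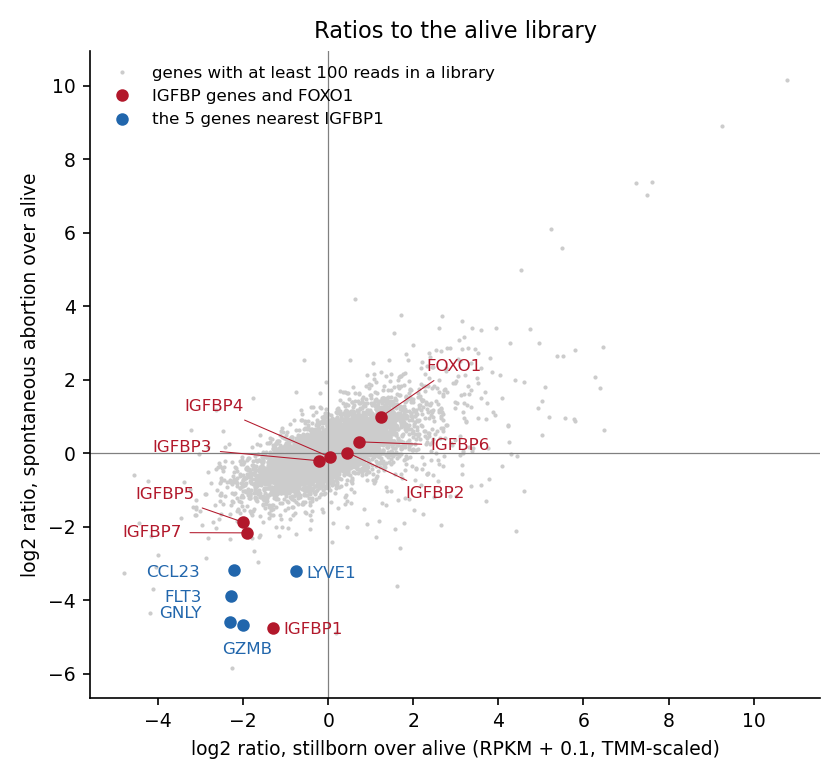
Log2 ratio to the alive library, on log2(RPKM + 0.1) after TMM scaling, of the stillborn (horizontal) and spontaneous abortion (vertical) libraries, with grey points for genes with at least 100 reads in a library. IGFBP1 and its 5 nearest genes lie at the lower edge, IGFBP5 and IGFBP7 lie together between them and the bulk of genes, and FOXO1 is on the upper right of 0.

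Of the growth factors and their receptors, IGF2 was at RPKM 34904, 26073 and 18289, 2.14-fold higher in the stillborn than in the alive one (2.13 to 2.14), while IGF1 had 3, 20 and 26 reads. IGF1R, the signalling receptor, was at RPKM 0.929, 1.60 and 2.41, 2.32-fold lower in the stillborn than in the alive library (2.11 to 2.55). Its implied length of 34549 bases lowers its RPKM against the other genes. The insulin receptor INSR was at 1.96, 2.16 and 3.11, the adaptor IRS2 at 24.8, 35.5 and 21.9, and the adaptor SHC1 at 11.4, 15.4 and 15.0. Over all genes tested, 13.1% were higher and 12.5% lower 2-fold in the stillborn library against the alive one. In the spontaneous abortion library 7.69% and 5.72% were, and these shares stand beside each list below. Of the 13 measured ligands, receptors and adaptors, 8 had the 30 reads needed in each pair. In the stillborn library 1 was higher (IGF2) and 3 were lower 2-fold (IGF1R, IRS1 and GRB10), and 0 were apart in the spontaneous abortion library. The median log2 ratio of the list was -0.30 and 0.09 over the 6 genes whose mean RPKM reached 1, beside -0.01 and -0.01 over all 10229 such genes.

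Proteases that cut IGFBPs, with their inhibitors, differed as single genes. CTSD, the lysosomal cathepsin D, was at RPKM 19.4, 11.5 and 8.50, 2.56-fold higher in the stillborn than in the alive library. HTRA1, a secreted serine protease, was at RPKM 6.45, 7.06 and 7.39, and ADAM12, a placental metalloprotease, was at 5.26, 6.42 and 8.32. PAPPA, the protease of IGFBP4, was low at 0.261, 0.603 and 0.534, and PAPPA2, the protease of IGFBP5 and IGFBP3, lower at 0.161, 0.133 and 0.107. STC1, a stanniocalcin that inhibits them, was at 0.634, 0.103 and 0.405 and 6.73-fold higher (3.49 to 14.0) between stillborn and spontaneous abortion. The matrix metalloprotease MMP7 was 58.6-fold higher in the stillborn than in the alive library (10.01 to 2366), with 46 reads against 1, and KLK3, a kallikrein, was 30.2-fold lower (11.6 to 112), with 4 reads against 154. Of 12 measured genes, 2 were higher and 1 lower 2-fold in the stillborn library, and 0 and 2 in the spontaneous abortion library, each against the alive one. The 30 reads needed were reached by 9 and 8 of the 12.

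Of the IGFBP-related proteins, those with more than a few reads were highest in a loss. CTGF, a matricellular protein with an IGFBP-like domain, was at RPKM 14.9, 7.38 and 3.23, 5.17-fold higher in the stillborn than in the alive library (4.32 to 6.21) and 2.35-fold higher in the spontaneous abortion library (1.96 to 2.84). CYR61, its close relative, was at 5.70, 4.21 and 2.66, and WISP1 at 1.93, 2.08 and 1.84. Of 9 measured genes, 2 were higher 2-fold in the stillborn and 1 in the spontaneous abortion library against the alive one, and 0 were lower. Only 4 of the 9 had the 30 reads needed in each pair. IGFBPL1, ESM1 and NOV had 1 read each, all in the spontaneous abortion library, and WISP2 had 0 in all 3.

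The relatives of FOXO1 were not higher in the losses. FOXO3, the most abundant of the FOXO genes, was at RPKM 12.1, 15.4 and 17.5, and its ratio to the alive library was 0.769 (0.736 to 0.803) in the stillborn and 0.903 (0.871 to 0.935) in the spontaneous abortion library. FOXO4 was at 0.383, 0.987 and 1.04, 2.42-fold lower in the stillborn than in the alive library (1.49 to 4.06). FOXO6 had 1, 2 and 2 reads. Genes known as FOXO targets in other tissues lay on either side of the alive library. Of 23 measured targets, 19 had the 30 reads needed in each pair. In the stillborn library 1 was higher (SOD2) and 2 were lower 2-fold (PDK4 and BCL2L11), and 0 and 1 in the spontaneous abortion library (TRIM63). Their medians were 0.27 and 0.16 over 18 genes, with 10 and 12 above 0, and their means 0.02 and 0.04. The most abundant were SESN3, a sestrin, at RPKM 125, 230 and 213 and CITED2, a transcriptional coactivator, at 81.2, 78.8 and 95.8. Of 15 measured regulators of FOXO proteins, TRIB2, a pseudokinase that represses FOXO activity, was at 0.537, 2.13 and 6.29 and 10.46-fold lower (7.64 to 14.7) for stillborn against alive. TRIB2 was also lower 2-fold in the spontaneous abortion library, and SGK1, a kinase that phosphorylates FOXO proteins, was 2.58-fold higher (2.36 to 2.83) for stillborn against alive. The other 13 were not apart 2-fold against the alive library.

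Marker lists of tissues that make IGFBP1 are given beside it. The decidual markers were mixed, and FOXO1 is called by its gene name only. PRL, the hormone of decidual stroma, had 3, 0 and 14 reads, and HOXA10 and HOXA11, transcription factors of uterine stroma, had 0 in all 3. Other genes of the list were detected, with RPKM 21.6, 20.9 and 10.8 for IL1RL1, a receptor of interleukin 33, 7.69, 11.2 and 7.78 for PRLR, the prolactin receptor, and 58, 95 and 97 reads for HAND2, a transcription factor of uterine stroma. RPKM reached 1 in 9, 9 and 10 of the 24 genes measured. PRL did not reach the 30 reads that the rules ask for. It was at least 4.78-fold lower for spontaneous abortion against alive by its exact interval, and 3.66-fold lower (1.02 to 19.9) for stillborn against alive, while the losses, with 3 reads and 0, were not resolved from each other. Other list genes short of 30 reads did not share one order. DIO2 (20, 14 and 3 reads), PGR (20, 1 and 5) and DKK1 (9, 2 and 1) were highest in the stillborn library. SST (0, 5 and 27 reads) was highest in the alive library, as PRL was. Of the 24 decidual genes, 4 were higher and 1 lower 2-fold in the stillborn and 4 and 0 in the spontaneous abortion library, each against the alive one. The 30 reads needed were reached by 15 and 14 of the 24. Over all genes tested, 13.1% were higher and 12.5% lower in the stillborn, and 7.69% and 5.72% in the spontaneous abortion library. The summed RPKM of the list was 114, 115 and 117, of which LAMB1, a laminin chain, made up 28.8, 45.4 and 57.4. WNT4, a decidual WNT ligand, was 4.94-fold higher (2.22 to 12.4) and RXFP1, the relaxin receptor, 5.33-fold higher (2.72 to 11.4) in the stillborn than in the alive library.

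Hepatocyte genes were split. ALB, serum albumin, was at RPKM 1.51, 0.780 and 1.83 and 2.28-fold lower (1.57 to 3.34) for spontaneous abortion against alive. AFP, the fetal albumin-like protein, was highest in the spontaneous abortion library, at 1.38, 4.53 and 2.45. RBP4, the carrier of retinol, was at 4.60, 8.06 and 17.2, and 2.08-fold lower (1.85 to 2.34) in the same pair. AHSG, a fetal liver protein, had 0 reads in all 3, and FGB, a fibrinogen chain, had 1, 42 and 31. Of 18 measured hepatocyte genes, 4 were higher and 3 lower 2-fold in the stillborn and 2 and 3 in the spontaneous abortion library. The 30 reads needed were reached by 12 and 11 of the 18. The list summed to RPKM 229, 280 and 283, of which APOA2, an apolipoprotein, made up 146, 208 and 189. Its medians were -0.16 and 0.06 over 8 genes and its means 0.13 and -0.06, which differ in sign. The part of either cell type in the IGFBP1 difference was not tested.

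Of the markers of uterine natural killer and other cytotoxic cells, GNLY and GZMB, picked above as nearest to IGFBP1, had its order. The list of 12 measured genes summed to RPKM 5.09, 2.87 and 22.7. In the alive library GNLY, GZMB and GZMA made up 8.84, 8.44 and 3.46 of it. Against the alive library, GNLY was 33.6-fold lower (15.1 to 93.1) and GZMB 37.2-fold lower (17.7 to 93.9) in the spontaneous abortion library, and 5.23-fold (3.29 to 8.71) and 4.18-fold lower (2.88 to 6.22) in the stillborn library. GZMA was at 0.375, 0.630 and 3.46, which is not the order of IGFBP1. CD96, a receptor of T and NK cells, went the other way, 12.9-fold higher in the stillborn (6.92 to 26.5) and 6.06-fold higher in the spontaneous abortion library (3.24 to 12.5). NCAM1, the gene of the list with the most reads (331, 990 and 604), was highest in the spontaneous abortion library. It was 1.14-fold higher there than in the alive library (1.03 to 1.26). The defining genes PRF1, EOMES and TBX21 had 0 reads in every library, while NKG7 and KLRD1 had 1 read each and KLRB1 had 2, all in the alive library. Of the 12, 6 had the 30 reads needed in each pair with the alive library. Of these 6, 3 were apart 4-fold as lower and 1 as higher in each loss. Over all genes tested, 3.23% were lower and 4.71% higher in the stillborn, and 1.51% and 2.31% in the spontaneous abortion library. The part of these cells in the IGFBP1 difference was not tested.

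**Figure D5:**
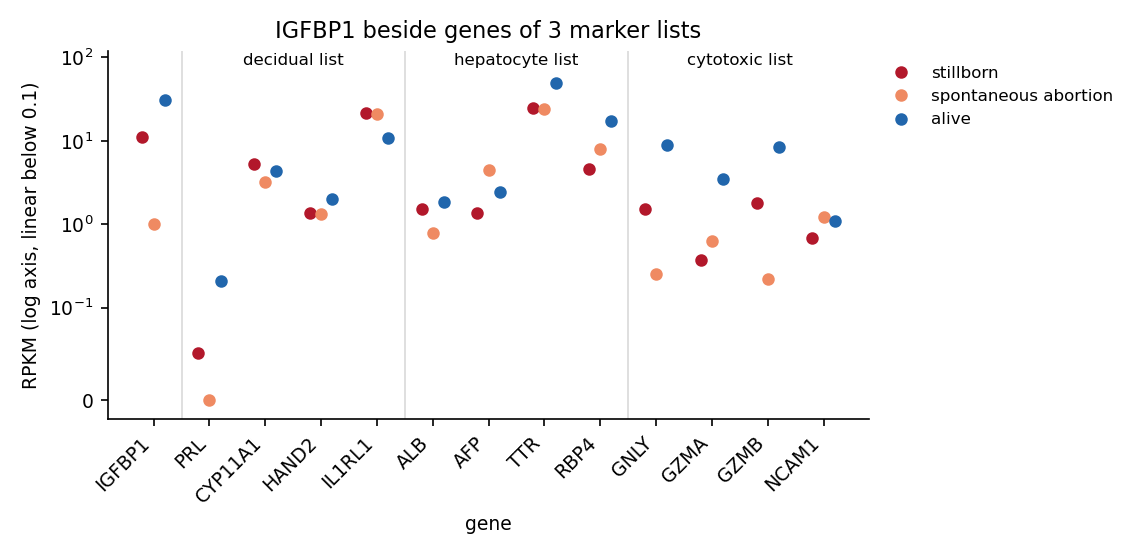
RPKM (log axis, linear below 0.1) of IGFBP1 beside 4 genes each of the decidual, hepatocyte and cytotoxic lists, chosen for display after their values were seen, in the 3 libraries. IGFBP1 runs from 1.01 to 30.7, GNLY and GZMB run in the same order, and PRL has 3, 0 and 14 reads; the genes shown do not stand for their whole lists.

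Mesenchymal and vessel markers are given beside IGFBP5 and IGFBP7. Of 14 fibroblast and matrix genes, 1 was higher and 4 were lower 2-fold in the stillborn and 0 and 3 in the spontaneous abortion library, each against the alive one. The 30 reads needed were reached by 13 and 12 of the 14. The higher gene was COL1A2, a collagen chain, 2.52-fold (2.38 to 2.66) for stillborn against alive. THY1, a surface protein of fibroblasts, was highest in the alive library as IGFBP5 was, at RPKM 3.51, 7.31 and 17.8. It was 4.55-fold lower (3.85 to 5.405) for stillborn against alive and, unlike IGFBP5, differed between the losses, at a ratio of 0.522 (0.436 to 0.622). POSTN, periostin, was 23.9-fold lower in the spontaneous abortion library (13.4 to 47.0). POSTN was also 6.58-fold higher (3.41 to 13.7) and COL6A1, a collagen chain, 6.42-fold higher (3.32 to 13.4) for stillborn against spontaneous abortion. PDGFRB was also highest in the alive library, at 0.167, 0.169 and 0.622, and its interval between the losses held 1 (0.555 to 2.02). The fibroblast and matrix list summed to 527, 515 and 447, led by LUM at 222, 239 and 158. Its median log2 ratio to the alive library was 0.27 in the stillborn and 0.46 in the spontaneous abortion library. These medians are over 9 genes, with 7 and 6 above 0. Of 8 smooth muscle genes, 5 and 6 had 30 reads. In the stillborn library 4 were lower and 1 higher 2-fold, and 2 and 1 in the spontaneous abortion library. TAGLN, an actin-binding protein, was at 2.47, 3.28 and 7.87, and MYLK, the myosin light chain kinase, at 3.67, 7.97 and 12.9. The smooth muscle list summed to 7.98, 13.0 and 22.6, nearly all of it from TAGLN and MYLK. ACTA2, smooth muscle actin, went the other way, 2.63-fold higher (1.41 to 5.11) for stillborn against alive with 33 reads to 16, and MYH11, smooth muscle myosin, was 2.53-fold higher (1.46 to 4.62) for spontaneous abortion against alive with 62 reads to 17. Of 12 endothelial genes, only 4 and 3 had 30 reads, and 2 were higher 2-fold in the stillborn and 0 in the spontaneous abortion library. FLT1, a receptor of VEGF, was 8.78-fold higher (4.34 to 20.1) for stillborn against alive and 5.17-fold higher (3.14 to 8.84) between the losses. That list summed to 2.96, 2.47 and 1.78, lowest in the alive library where IGFBP7 was highest, and CDH5 and CLDN5 had 0 reads in all 3. Of 13 kidney genes, only 5 had 30 reads in each pair, and 1 was higher and 2 were lower 2-fold in each loss against the alive library. CUBN, the cubilin receptor of the proximal tubule, was the higher one, 3.17-fold (2.45 to 4.14) in the stillborn and 2.00-fold (1.55 to 2.60) in the spontaneous abortion library, with 209, 242 and 84 reads. AQP2 and SLC12A3, of the collecting duct and distal tubule, were lower 4-fold in both losses, with 6, 3 and 32 reads and with 0, 6 and 30. The part of these cell types in the IGFBP5 and IGFBP7 differences was not tested.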

How the data were processed

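The authors deposited RPKM values, 1 table per library with 33994 gene names. The unit is not named in the labels and was taken from the description of the series made for this work and from the values. Per the submitters' processing notes, bcl2fastq 2.17, STAR and HTSeq were used. Genome build, annotation and strand setting remain not given in the sources used here, so reads shared with overlapping genes cannot be told apart and no coordinates are printed. SPIA libraries carry no molecular identifiers in the labels, so intervals cover counting error only.

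Whole library totals, reads and gene lengths were solved for from the deposited RPKM to within 0.1 reads, and 23275 of the 23276 genes above 0 gave whole reads in every library. A factor shared by a gene's reads and length cannot be seen, so read numbers are lower bounds. Their sums reached between 96.6% and 97.1% of each total. With simulated reads for 23275 genes, 3 of 3 totals came back exactly, 93.3% of 19186 genes with reads in all libraries had the right reads and 0 lay above the truth. In the simulated stillborn against alive comparison, 100% of 200 genes changed 8-fold and 0 unchanged genes were counted as apart at 4-fold. The simulated reads had counting error only, around a mean shared by the libraries, and the changed genes were picked among well-covered ones. This outcome was nearly fixed by those settings. It checks the code and gives no rate of false calls between real libraries.

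TMM factors and exact Clopper-Pearson intervals were computed in Python 3.11.15 with numpy 2.4.6 and scipy 1.17.1. No test across libraries was possible with 1 library a status. Ratios with 0 reads in a library take 3 in its place. List medians are on log2(RPKM + 0.1) over genes whose mean RPKM reached 1. The rule named genes of the lists when apart 4-fold, at most 4 a pair, and otherwise by mean RPKM, up to 4 a list. It was not followed in full, and other genes of the lists were named after their values were seen. The members, lists and rules were chosen with earlier results of these data known. Alternatives were total assigned reads, median-of-ratios and upper-quartile scaling, thinning, other limits on reads, pseudocounts and shares of reads not divided by length.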

Additional observations from a re-analysis of the deposited data

How the results depend on the processing

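Directions of the 2-fold ratios of IGFBP1, IGFBP5, IGFBP7 and FOXO1 were kept under every scaling, pseudocount and thinning tried. On total assigned reads, the log2 ratio of IGFBP1 for stillborn over alive was -1.48 in place of -1.32. With log2(RPKM + 1), which pulls low genes to 0 by its construction, 8 ratios left their counting interval. For stillborn over alive these were IGFBP5 at -1.55, IGFBP7 at -0.91 and FOXO1 at 0.82. For spontaneous abortion over alive they were IGFBP1 at -3.93, IGFBP5 at -1.48, IGFBP7 at -0.99 and FOXO1 at 0.63, and between the losses IGFBP1 at 2.68. Per read and not per length, IGFBP1 held 47.7% of the family in the alive library in place of 53.3%.

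Counts of genes apart followed the limit on reads. With at least 100 reads, 288 genes were higher and 191 lower 4-fold for stillborn over alive, 118 and 54 for spontaneous abortion over alive, and 147 and 65 between the losses, and 2-fold they were 1042 and 1116, 544 and 362, and 511 and 569. With no limit, the 4-fold counts were 1240 and 719, 642 and 599, and 935 and 418, beside 636 and 436, 320 and 209, and 390 and 228 with 30 reads. The 2-fold counts with no limit were 2872 higher for stillborn over alive, 1667 and 1486 for spontaneous abortion over alive, and 1971 higher between the losses, beside 1769, 1066 and 792, and 1046. Thinned, 207 genes were higher 4-fold for spontaneous abortion over alive and 138 lower between the losses. IGFBP7 rests on 7, 10 and 41 reads, the thinnest of the 8. No paired analysis was possible because each status has 1 library.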

Other observations

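Gene groups not described so far follow, with values in the order stillborn, spontaneous abortion, alive. Of 12 measured epidermal genes, 11 and 10 had the 30 reads needed against the alive library. Of those, 10 were higher 2-fold in the stillborn and 6 in the spontaneous abortion library, beside 13.1% and 7.69% of all genes tested. By the 4-fold rule 5 and 0 were higher, beside 4.71% and 2.31%. The 5 were KRT14, SBSN (6.75-fold), KRTDAP (6.15-fold), DSG1 (4.94-fold) and KRT10. KRT14, a basal keratin, was at RPKM 31.7, 9.64 and 3.78 and KRT10, a suprabasal keratin, at 29.6, 10.8 and 8.21, while KRT5 was lower 2-fold in the stillborn library, at 49.1, 151 and 151. Of 15 hypoxia genes, 2 were higher and 1 lower 2-fold in each loss, with a median log2 ratio of 0.47 in both. LDHA, lactate dehydrogenase, led them at RPKM 435, 532 and 377, then BNIP3 at 123, 152 and 92.5. SLC2A1, a glucose transporter, was at 105, 77.6 and 52.1, and CA9, a carbonic anhydrase, at 0.420, 0.427 and 0.992. Of 13 trophoblast genes, 7 had the 30 reads needed in the stillborn and 8 in the spontaneous abortion comparison. Of these, 1 was higher 2-fold in the spontaneous abortion library against the alive one and 0 were apart in the stillborn library. That gene was INSL4, an insulin-like peptide of placenta, with 9, 58 and 0 reads. SST, somatostatin, on the decidual list, had 0, 5 and 27 reads and was singled out after its values were seen.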
